A study of Salix matsudana with 3 samples.

Results

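The miR159 and miR319 families of the Chinese willow Salix matsudana comprised 7 of the 205 miRNA entries in the deposited small RNA table and 68 of the 981 miRNA and cleavage site pairs in the deposited degradome table. Members were all entries named miR159 or miR319 in either case of letters, which gave 3 miR159 and 4 miR319 entries with 6 distinct sequences. Roots and stems of 30-day-old plants were sampled in every case. The salt small RNA library came from plants given NaCl at 100 mmol per litre over 2 days, and the other small RNA library came from untreated plants. The remaining library, a degradome in which the ends of cleaved messenger RNAs are sequenced, was prepared from salt-exposed and untreated material mixed. The labels name no genotype or cultivar and no number of plants. Each condition had 1 library, so no difference between conditions has a replicate check. The untreated library was labelled as 0 days in the table, so exposure to salt and the passing of 2 days cannot be told apart. Roots and stems were not separated, and a smaller share of one organ in a library and a lower level within it cannot be told apart.

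MiR159 and miR319 are related, ancient miRNA families of land plants that guide ARGONAUTE proteins to cut messenger RNAs at a closely matching site. In Arabidopsis, miR159 holds down GAMYB-like factors, MYB proteins of gibberellin signalling that promote anther development and, when released, stunt vegetative growth. MiR319, the product of the JAW locus in Arabidopsis, cuts messenger RNAs of CINCINNATA-like TCP factors, which end cell division in growing leaves and promote senescence.

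The mature sequences are shown because the families differ by little and the degradome assignments below turn on single bases. Capitals mark the seed, bases 2 to 8 from the 5′ end, and letters are as deposited, with T for U.
ptc-miR159a_R-1: tTTGGATTgaagggagctct
mes-miR159c_R-1_1ss1AT: tTTGGAGTgaagggagctct
ptc-miR319a: tTGGACTGaagggagctccc
gma-miR319n_L-1_1ss8CT: tTGGACTGaagggagcccct
ptc-miR319i_1ss20CT: tTGGGCTGaagggagctcct
ptc-MIR319a-p5: aGAGCTTTcttcagtccactc

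The entry cpa-miR159a_R-1 has the same letters as ptc-miR159a_R-1 and the same counts in both libraries, so both are described once as miR159a. The sequences fell into 5 seeds, and only miR319a and miR319n had a seed in common. None of the 5 seeds occurred in any other entry of the table. Positions counted from 1 at the 5′ end, miR159c differed from miR159a by T7G, inside the seed. MiR319n differed from miR319a by T17C and C20T, both outside the seed, and miR319i differed from it by A5G and C20T, of which the first lies in the seed. Compared base by base from their first base, miR159a and miR319a matched at 8 of 20 positions. With miR319a moved by 1 base, so that its first base stood under the second base of miR159a, 17 of 19 matched, and the differences were T7C and T20C by miR159a positions. The 5 sequences other than the p5 arm had the stretch TGAAGGGAGC in common, 10 bases that no other entry of the table contained.

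A precursor position was used for 2 of the 7 entries. MiR319a and MIR319a-p5 lie on the 3′ and 5′ arms of a single hairpin at positions 433 to 611 of contig c33676_f1p0_1627_1_2kb, whose name has the form of a long-read transcript. The genome build or transcript assembly behind the contig was not known here. The hairpin is printed because both arms were sequenced, and capitals mark the arms, at bases 10 to 30 and 158 to 177 of its 179.
MIR319a hairpin: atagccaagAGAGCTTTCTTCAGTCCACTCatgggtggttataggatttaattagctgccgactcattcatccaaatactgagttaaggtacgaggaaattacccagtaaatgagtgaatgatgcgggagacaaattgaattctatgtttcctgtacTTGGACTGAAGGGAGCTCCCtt
Its predicted fold had a free energy of -72.7 kcal per mol, with 18 of the 20 bases of miR319a and 17 of the 21 bases of the p5 arm paired. The long stretch between the arms is typical of MIR319 hairpins in plants.

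Levels are shares of all reads listed in a library, per 1000000 (RPM). The salt library listed 734026 reads and the untreated library 4622984, so 1 read was worth 1.36 and 0.216 RPM. Listed reads are not the full depth of a library, and intervals cover counting error only.

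MiR159a was much scarcer in the salt library. It held 16222 estimated reads there, or 22100 RPM, against 614846 reads or 132998 RPM in the untreated library. It ranked eighth among the 205 entries in salt and second in untreated plants. As a share of listed reads it stood at 2.21% in the salt library (95% exact Clopper-Pearson interval 2.18 to 2.24) and 13.3% in the untreated library (13.27 to 13.33). The level was 6.02-fold lower in salt (95% exact counting interval 5.92 to 6.11), a log2 ratio of -2.59 on RPM + 1. The listed total holds the identical cpa entry as well, so these shares count the sequence once in a total that holds it under both names. If its reads are repeated, both shares are too low, and over distinct sequences the miR159 family was 6.78-fold lower. If the reads were instead divided between both names, the sequence held 4.42% of salt and 26.6% of untreated reads, miR159c included. The fold was then the same.

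MiR159c was a minor companion of miR159a. It had 1.75 estimated reads in the salt library, or 2.38 RPM, against 227 reads or 49.1 RPM in the untreated library. It passed the level minimum used for calls, a mean of 10 RPM, only through the untreated library. The salt value lies under the limit of 3 reads, or 4.09 RPM, so the size of its fold is not fixed. As listed, its level was 20.6-fold lower in salt (4.93 to 149.7), an interval that contains the fold of miR159a. Within a library, miR159a had 9270 times the reads of miR159c in salt (2245 to 66981) and 2711 times in untreated plants (2378 to 3099), and these intervals overlap.

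MiR319a, the guide arm known to act on TCP factors, was lower in salt by a smaller factor. It held 9435 reads or 12854 RPM in the salt library, against 96127 reads or 20793 RPM in the untreated library, and ranked 12th and sixth among entries. Its level was 1.62-fold lower (1.58 to 1.65), a log2 ratio of -0.69, short of the 2-fold used for calls. The other arm of the hairpin stood level between libraries. MIR319a-p5 had 183 reads or 249.3 RPM in salt, against 1154 reads or 249.6 RPM in untreated plants, a ratio of 0.999 (0.850 to 1.17).

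The remaining miR319 entries were near the limit of detection. MiR319n was listed at 0 reads in the salt library, which allows up to 3 reads or 4.09 RPM, against 9.75 reads or 2.11 RPM in the untreated library. A difference was therefore not detectable at this depth. MiR319i had 1 read in the salt library and 1.25 in the untreated library, both under 3 reads, so no fold is given.

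**Figure D1:**
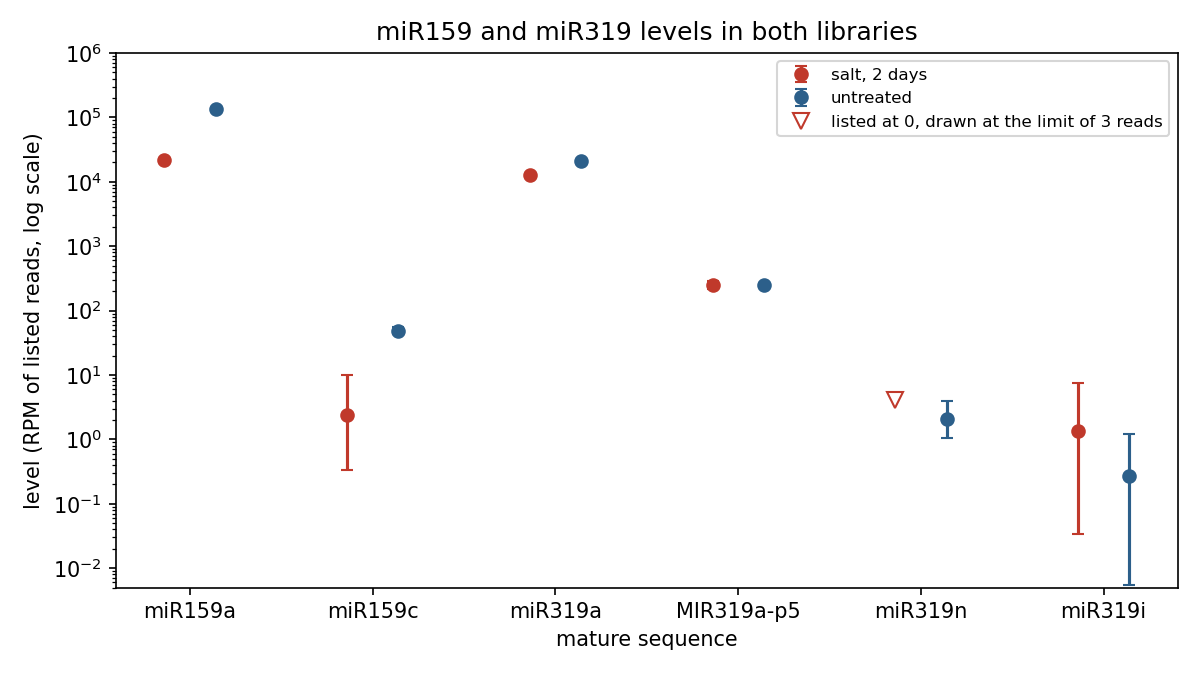
Level of each distinct miR159 and miR319 sequence in RPM of listed reads (log axis) in the salt library (red) and the untreated library (blue), with 95% exact counting intervals; the open triangle marks miR319n, listed at 0 in salt, at the limit of 3 reads. MiR159a lies at 22100 RPM in salt and 132998 RPM in untreated plants, while MIR319a-p5 lies at 249.3 and 249.6 RPM.

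Summed over distinct sequences, the miR159 family was 6.02-fold lower in the salt library (5.93 to 6.11), at 22102 RPM in salt and 133047 RPM in untreated plants. Its log2 ratio was the second lowest of the 43 numbered families with a mean of at least 10 RPM. The miR319 family was 1.61-fold lower (1.57 to 1.64), at 13104 RPM in salt and 21045 RPM in untreated plants, the 10th lowest of the 43. A single sequence carried each sum. MiR159a made up 99.99% of the salt and 99.96% of the untreated miR159 reads, and miR319a made up 98.1% of the salt and 98.8% of the untreated miR319 reads.

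Of the 5 member entries that reached the level minimum, 3 were lower by 2-fold or more and 0 were higher by as much, and the other two were the arms of MIR319a. Of all 115 entries above it, 15 (13%) were lower by 2-fold or more and 37 (32.2%) were higher by 2-fold or more. Counted by distinct sequence, 2 of 4 members were lower, both miR159, against 13 of 109 (11.9%) in the table, and 0 were higher, against 35 of 109 (32.1%). MiR159c reached the minimum only through its untreated level, which fixed its direction, so its call adds nothing. Without it 1 of 3 was lower, miR159a, and the median log2 ratio was -0.69 over the 3 and 0.33 over the 109. The median of the 3 is the value of miR319a itself, and the arms of MIR319a come from a single hairpin, so it describes no shift of a group. The miR159 sequences differ from each other at 1 base, and reads may have been divided between them, so they are not separate observations.

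The ratios depend on the total used for scaling. Leaving the miR159 entries out of the totals moved the median log2 ratio of all 115 entries by -0.37, the median-ratio scaling by -0.35, distinct sequences by -0.17, leaving out the 5 most abundant entries by -1.20 and leaving out possible rRNA or tRNA fragments by 0.22. MiR159a stayed at least 2-fold lower under all 6 scalings, from -3.81 to -2.37 log2. MiR319a stayed below 0, from -1.91 to -0.47, and was more than 2-fold lower under 3 of the 6. MIR319a-p5 ran from -1.22 to 0.22 and changed sign. With the listed total, miR159a lay at -2.92 log2 relative to the median of the 115 entries, miR319a at -1.03 and MIR319a-p5 at -0.34. A change of total shifts entries and median alike, so these differences hardly depend on it by construction.

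**Figure D2:**
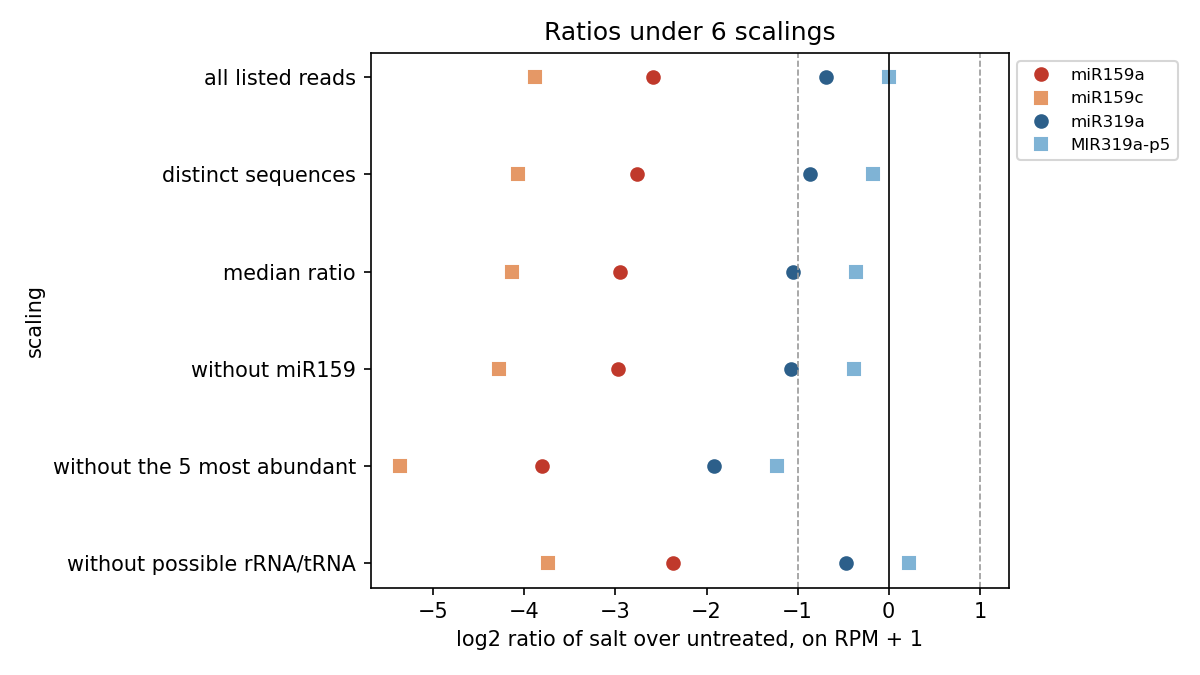
Log2 ratio of salt over untreated on RPM + 1 (horizontal axis) for 4 sequences under 6 scalings (rows); dashed lines mark 2-fold and the solid line no difference. MiR159a lies left of the 2-fold line in every row, from -3.81 to -2.37, while MIR319a-p5 lies on both sides of 0, from -1.22 to 0.22.

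Ratios of reads within a library need no scaling. Of 4 such ratios, chosen with the values known, 3 differed between the libraries beyond counting error, and that of miR159a to miR159c, given above, did not. The 3 are formed from the same 3 sequences, so any 1 of them follows from the others and they are not separate observations. MiR159a had 1.72 times the reads of miR319a in the salt library (1.68 to 1.76) and 6.40 times in the untreated library (6.35 to 6.44), a 3.72-fold lower ratio in salt (3.62 to 3.82). The balance of the MIR319a arms also differed. MiR319a outnumbered MIR319a-p5 by 51.6 to 1 in the salt library (44.5 to 60.0) and 83.3 to 1 in the untreated library (78.6 to 88.4), a 1.62-fold lower ratio (1.37 to 1.89). MiR159a outnumbered MIR319a-p5 by 88.6 to 1 in the salt library (76.6 to 103.1) and 532.8 to 1 in the untreated library (502.9 to 565.0), a 6.01-fold lower ratio (5.11 to 7.04). These intervals compare the libraries and not the conditions.

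**Figure D3:**
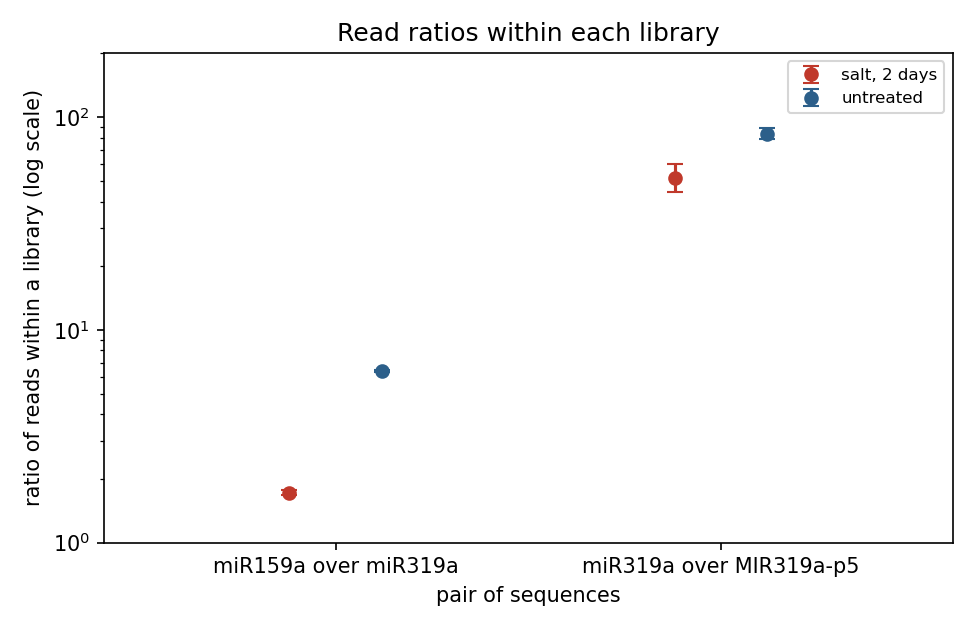
Ratio of reads of 2 sequences within a library (log axis) in the salt library (red) and the untreated library (blue), with 95% exact counting intervals. MiR159a over miR319a stands at 1.72 in salt and 6.40 in untreated plants, and miR319a over MIR319a-p5 at 51.6 and 83.3.

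Families that act downstream of TCP factors or on other MYB factors held entries on both sides. Of 11 entries of miR164, miR396, miR828 and miR858, 7 reached the level minimum, of which 4 were at least 2-fold higher, 2 at least 2-fold lower and 1 neither, beside 32.2% higher and 13% lower over all 115 entries. MiR164 restrains NAC factors of organ boundaries and miR396 restrains growth-regulating factors, and in Arabidopsis CINCINNATA-like TCP factors activate genes of both. Their most abundant entries diverged, with nta-miR164a at 9120 RPM in salt and 3910 RPM in untreated plants, and mes-miR396c at 3621 and 16014 RPM. Entries of miR396 also diverged from each other. The entry gma-miR396a-5p_L+1 was higher in salt, at 665.8 RPM against 235.0 RPM, and ptc-miR396e-3p was near level, at 1421 and 1487 RPM. The MYB regulators diverged too, with ptc-miR828a at 246.6 RPM in salt and 77.4 RPM in untreated plants, and aly-miR858-5p_L-1R+1 at 1850 and 4253 RPM.

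The degradome listed the textbook target class of each family. Pairs with a TCP symbol numbered 36 in the whole table and all 36 belonged to miR319 entries, while the 4 pairs with the GAMYB symbol GAM1 all belonged to miR159 entries. The other MYB-named symbol in the table, MYB340, was paired with a miR858 entry. No site was listed for both a miR159 and a miR319 entry. Each site was counted once over entries, and a row repeated within 1 entry was kept as another site. So counted, TCP genes took 14 of 34 miR319 sites (41.2%), against 14 of 773 sites in the whole table (1.81%). GAM1 took 2 of 6 miR159 sites, against 2 of 773 (0.259%). With repeated rows also counted once, TCP genes took 13 of 31 miR319 sites (41.9%), against 13 of 762 (1.71%), and the miR159 sites were the same in number. The TCP and GAM1 sites of the whole table are these same sites, and every listed pair has an alignment score of 4 or lower. Which family is paired with which class thus follows in part from sequence matching, and the shares are no separate support. The degradome has 1 library of mixed RNA with no control, so these counts hold no comparison of salt with untreated plants.

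By raw reads, miR319 sites in TCP genes stood above the median site, except 1 TCP2 site that stood at it. TCP2 had 9 sites with 4 to 27 reads each, TCP3 had 4 sites with 29 reads each, of which 2 are listed with the same range and position, and TCP4 had 1 site with 29 reads. A site with 29 reads exceeded 81.9% of the 773 sites, whose median was 4 reads and whose highest was 1137. Summed over sites, TCP genes held 340 of the 408 miR319 degradome reads (83.3%), or 311 of 377 (82.5%) with repeated rows counted once. Many of these sites repeat a read number and a TPB value, the deposited scaled signal. The 14 TCP sites carried only 5 distinct combinations of the 2, with 29 reads on all TCP3 and TCP4 sites and 27, 26, 16 and 4 reads on TCP2 sites. Counted once per combination they hold 102 reads, while the other miR319 combinations hold 13, 9, 4, 2, 1 and 1 reads. The TPB of a site with 29 reads was 5.8 times the 52.7 units that 1 read was worth at most, and that of a site with 27 reads was 4 times. Over all deposited pairs 1 read carried between 0.1 and 1 of those units. In multiples of 52.7, TPB was 5.8 for 29 reads at 5 sites, 6.5 for 13 at 2 and 0.1 for 1 at 10. For these, the multiple times the number of sites equals the reads. For every TCP2 combination, such as 27 reads at 3 sites with a multiple of 4, that product is smaller than the reads. Whether reads were divided over the sites listed was not tested. Sites with the same combination may list the same reads on several transcripts. Transcript identifiers were not used here, so isoforms and gene copies cannot be told apart.

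Sites of miR159 had 2 to 7 reads, with a median of 7 against 4 over all sites, and the fewest were in GAM1. GAM1, the rice name of GAMYB, was listed with a cleavage site at position 1750 with 2 reads and at position 1626 with 3 reads, more than 28.3% and 40.1% of all sites. The 4 remaining miR159a sites had no gene symbol, 7 reads each, more than 57.6% of all sites, and a single TPB value. They may list the same 7 reads, and the miR159 median of 7 rests on this repeat. Counted once per combination of reads and TPB, miR159 sites hold 7, 3 and 2 reads. MiR159a, 6.40 times as abundant as miR319a in the untreated library and 1.72 times in the salt library, thus had a highest site of 7 reads against 29 for miR319a. Levels of the target transcripts were not measured here.

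**Figure D4:**
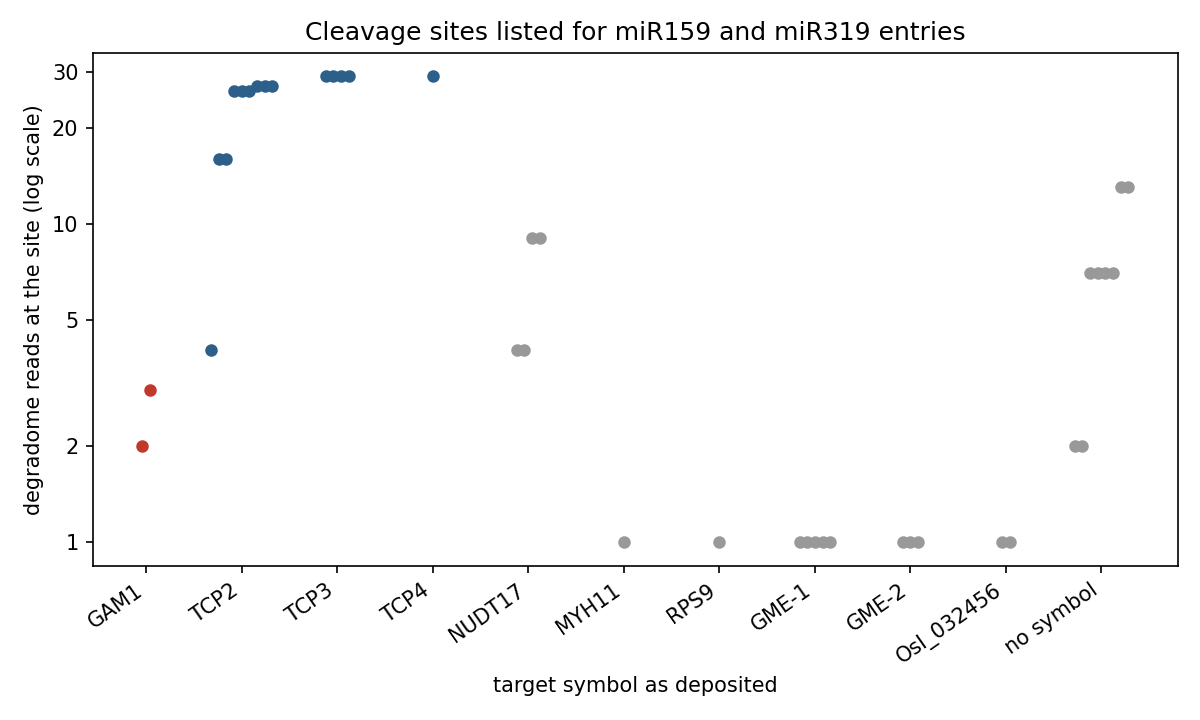
Degradome reads (log axis) at each of the 40 sites listed for miR159 and miR319 entries, by target symbol as deposited; each point is 1 site, GAM1 in red, TCP genes in blue and other targets in grey. TCP sites reach 29 reads, while GAM1 sites have 2 and 3 reads.

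In both families the best score at a textbook target belonged to a scarce sequence. Scores run from 0 to 4 in the table, and lower is a better match. All 11 TCP sites of miR319a were listed again for miR319i with equal scores and for miR319n with scores 1.5 lower. TCP2 sites scored 2 with miR319n and 3.5 with miR319a, and TCP3 sites scored 2.5 and 4. Another 3 TCP sites were listed for miR319n alone, namely TCP4 position 1922 with a score of 3.5 and TCP2 positions 1569 and 2009 with scores of 4 and 2. MiR319n had 0 and 9.75 reads in the small RNA libraries, as given above, and differs from miR319a by T17C and C20T. In the miR159 family the GAM1 site at 1750 scored 1.5 with miR159c and 3.5 with miR159a, and the site at 1626 was listed for miR159c alone, with a score of 2.5. The score uses sequence alone, and which of these sequences guided a cut cannot be told apart from the degradome reads.

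The deposited cleavage position lay opposite base 10 of the miRNA, counted from the end of the aligned range, in all 68 miR159 and miR319 pairs. Of all 981 pairs, 863 (88.0%) did so, and the others lay opposite base 9 or 11. No listed pair lay elsewhere, so the position may reflect how pairs were selected and is no separate support for the members. Base 10 is next to the bond that ARGONAUTE proteins are known to cut.

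Targets outside the TCP and GAMYB classes had 1 to 13 reads per site. Their highest TPB was 342.2, at the 2 sites with 13 reads, against at most 305.4 at TCP sites. Among the sites of both families, TCP sites thus stood highest by reads and not by TPB. MIR319a-p5 had 6 sites and none in a TCP gene. NUDT17, named for a Nudix hydrolase, held 4 of them with 4 or 9 reads, and MYH11 and the ribosomal protein gene RPS9 had 1 read each. MiR319n had 10 sites in GME-1, GME-2 and OsI_032456, or 8 with repeated rows counted once, all with 1 read, a score of 4 and the lowest TPB of the table. These sites carry a single combination of reads and TPB and may all list the same read. GME genes encode GDP-mannose epimerase, an enzyme of ascorbate synthesis. MiR319a had 4 sites without a symbol, of which 2 had 13 reads and 2 had 2 reads, all with a score of 4.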

How the data were processed

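RNA was purified on columns, treated with DNase and made into small RNA libraries by the Illumina protocol, per the labels' protocols. Tools for trimming, mapping and calling are not given in the sources used here. Estimated counts of each mature sequence, deposited by the authors under headers marked raw, include parts of reads in 68 of 205 entries. The degradome file gives deposited raw counts per cleavage site, an alignment score and a signal headed TPB, per the file headers. Sample titles tied the columns for 0 and 2 days to untreated and salt plants.

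Levels, exact Clopper-Pearson intervals and exact conditional intervals (counts rounded to whole numbers) were computed with Python 3.11.15, pandas 2.3.3 and SciPy 1.17.1, and checked on simulated data. Calls used log2 of RPM + 1, a mean of at least 10 RPM and 2-fold. Degradome rows of different entries with the same symbol, range, position, reads and TPB were counted as 1 site, and a row repeated within 1 entry as another site. The hairpin was folded with RNAfold 2.7.2. All member entries are named, with GAMYB, TCP and up to 10 other symbols per family. The 3 entries nearest in log2 ratio to miR159a and to miR319a, and the families miR164, miR396, miR828 and miR858, are also named. Members and lists were chosen with earlier results of these data known. The conditions were not tested against each other, since each has 1 library.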

Additional observations from a re-analysis of the deposited data

How the results depend on the processing

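No paired analysis was possible because each condition has 1 library. The miR159 family sum was below 0 and past 2-fold in the main setting and under all 7 alternatives. It stood at -2.59 log2, and at -2.97 without miR159 in the totals, -3.81 without the 5 most abundant entries, -2.95 with median-ratio scaling, -2.76 over distinct sequences only and -2.37 when possible rRNA or tRNA fragments were left out. The miR319 sum of -0.68 stood at -1.06, -1.90, -1.04, -0.86 and -0.46 under the same scalings, past 2-fold under 3 of them. Both were within counting error when untreated reads were thinned to the salt total or every entry was counted. Over all entries, those at least 2-fold lower numbered 15, against 24 without miR159 in the totals, 53 without the 5 most abundant entries, 34 with no level minimum, 9 with a minimum of 50 RPM, 25 at 1.5-fold and 6 at 4-fold. Those at least 2-fold higher numbered 37, against 18 without the 5 most abundant entries and 20 at 4-fold. The 6 miR159 sites became 1 at a score of at most 2, 2 at a score of at most 3 (100% in GAM1), 0 with at least 10 reads and 12 when every pair was counted. The 34 miR319 sites became 8 at a score of at most 2, 13 at a score of at most 3 (92.3% in TCP genes), 22 with at least 2 reads, 15 with at least 10 reads (86.7%) and 56 when every pair was counted (64.3%). Counting repeated rows once, an alternative chosen after seeing the data, gave 6 and 31 sites. The depth of 734026 listed salt reads limits miR159c, miR319n and miR319i.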

Other observations

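The entries whose ratio lay nearest to that of miR159a (-2.59 log2) were the predicted entry PC-5p-40981_92 at -2.84, mes-miR396c at -2.14 and nta-miR397_L+2 at -1.92. The first rests on 2 salt reads against 119 untreated reads. MiR396 acts on growth-regulating factors and miR397 on laccases, enzymes of lignin formation. Nearest to miR319a (-0.69) were PC-5p-34356_122 at -0.70, ptc-miR398b_R+1 at -0.71 and gma-miR171o-5p at -0.65. Likeness here means a small difference in log2 ratio between 2 libraries and nothing more.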
